A study of Arabidopsis thaliana with 30 samples.

Results

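In Arabidopsis seedlings, 81 nuclear loci were at or near 0 in unheated wild type and were measured in unheated ski2 dcl4 and ski2 dcl4 dcl2 plants. They were taken from 37792 nuclear rows of a table of FPKM (sequenced fragments per kilobase of a transcript, relative to the size of the library). The rule asked for a mean of 2 FPKM or more over the 3 control libraries of ski2 dcl4 and over the 3 of ski2 dcl4 dcl2, and at most 0.2 FPKM in the 3 control libraries of Col-0. Values of these 9 libraries chose the loci and are described without a test. The data go against the words "only in ski2 dcl4 genotypes". At 0.5 FPKM or more, 1 control library labelled smxl4 smxl5 held 55 of the 62 steadily measured loci, and control Col-0 held none. Single loci were present in smxl6 smxl7 smxl8. The loci are therefore called here by the rule, as loci near 0 in control Col-0 and present in both ski2 dcl4 genotypes.

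The study measured mRNA in 7-day-old seedlings of 5 genotypes, Col-0 (wild type), ski2 dcl4, ski2 dcl4 dcl2, smxl4 smxl5 and smxl6 smxl7 smxl8. Each was sampled without heat (control, 22 °C) and after 85 min at 44 °C in a water bath, with 3 libraries in each of 10 groups. The labels do not say that the libraries of a group came from separate plantings, so the p-values cover the spread between the sequenced samples alone, and that spread may be technical. The samples are whole seedlings, in which fewer cells of a type and less RNA per cell cannot be told apart. Shoot and root markers were present in every group, 1 of 5 shoot markers being listed at 0 throughout, and the summed level of 3 pollen markers stayed at or below 0.609 FPKM in each library. An FPKM of 1 in a transcript of 1 kb stood for about 13.5 to 23.4 reads, an estimate from the smallest steps of rarely measured genes.

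SKI2 is the RNA helicase that feeds transcripts into the cytoplasmic exosome, where they are degraded from the 3′ end. The Dicer-like enzymes DCL4 and DCL2 process double-stranded RNA into small interfering RNAs, which can guide silencing of matching RNA and DNA. Pseudogenes and transposable elements of Arabidopsis crowd around the centromeres, where DNA methylation and related chromatin marks keep most of them silent. Sadhu elements are non-coding retrotransposons of Arabidopsis.

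The mutated genes were read first. SKI2 (AT3G46960) was at 6.23, 6.40 and 6.61 FPKM in the control libraries of Col-0, 3.24, 3.25 and 3.56 in those of ski2 dcl4, and 3.24, 2.79 and 3.08 with dcl2 added. DCL2 (AT3G03300) was at 5.56, 5.65 and 5.62 FPKM in control Col-0 and at 2.90, 3.68 and 3.17 in control ski2 dcl4 dcl2. SKI2 was lower than in control Col-0 without overlap in both mutants, and DCL2 was so in ski2 dcl4 dcl2. In control ski2 dcl4, DCL2 was at 6.61, 6.35 and 6.83 FPKM, above each control Col-0 library. DCL4 (AT5G20320) was at 3.07, 3.46 and 3.71 FPKM in control Col-0 and overlapped at 3.19, 3.54 and 3.60 in control ski2 dcl4. With dcl2 added DCL4 was at 2.83, 2.69 and 3.01 FPKM, below each control Col-0 library. In the control libraries labelled smxl4 smxl5, SMXL5 was at 14.6, 15.4 and 14.98 FPKM against 4.69, 4.97 and 4.06 in Col-0, and SMXL4 was at 3.39, 3.43 and 2.86 FPKM against 1.76, 2.06 and 1.97. Both were higher without overlap. What the mutant alleles do to transcript levels was not examined, so these values do not settle the label. In heated libraries SMXL4 was at 0.803, 1.15 and 1.29 FPKM under that label against 2.12, 2.15 and 2.39 in Col-0, lower without overlap, and SMXL5 overlapped at 2.97, 2.86 and 3.32 against 2.84, 3.38 and 3.14. The heated values do not settle the label either, and "labelled" is kept below for both groups.

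Libraries that stand apart come before the results. Replicate 3 of the control group labelled smxl4 smxl5 held 166 FPKM summed over 62 loci, against 8.32 and 15.8 FPKM in replicates 1 and 2. Its SKI2 level of 6.51 FPKM lay among those of control Col-0, and its DCL4 level was 3.03 FPKM. Replicate 1 of heated Col-0 held a sum of 22.3 FPKM, against 4.59 and 5.64 FPKM in replicates 2 and 3.

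Of the 81 loci, 62 were above 0 in each of the 6 control libraries of the ski2 dcl4 genotypes and are called steady. This split was made after the values were seen and receives no test. A further 18 were at 0 in at least 1 of the 6, and 14 of these were above 0 in at most 3. Their transcripts measured 165 to 270 bp, with a median of 205.5 bp against 859 bp for the steady loci, and 12 of the 18 overlapped another locus of the table. The highest of them, AT5G04790, a locus of 165 bp inside AT5G04800, stood at means of 40.0 ± 69.2 and 48.7 ± 84.3 FPKM (SD, n = 3) in control ski2 dcl4 and ski2 dcl4 dcl2. MIR833a, a microRNA precursor, stood at 12.9 ± 11.2 and 7.78 ± 13.5 FPKM (SD, n = 3). Such values were 0 in some libraries of a group and high in others, and they are not taken further one by one.

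The last of the 81 is RBCS1A (AT1G67090), which encodes a small subunit of Rubisco, a gene that green tissue uses throughout. It was listed at 7949, 9639 and 9221 FPKM in control ski2 dcl4 and at 13787, 13799 and 13013 FPKM in control ski2 dcl4 dcl2. It was listed at 0 in all 3 heated libraries of ski2 dcl4 dcl2 and in all 18 libraries of the other genotypes. Such zeros may be failed estimates, so counts of calls that include the gene are also given without it.

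**Figure D1:**
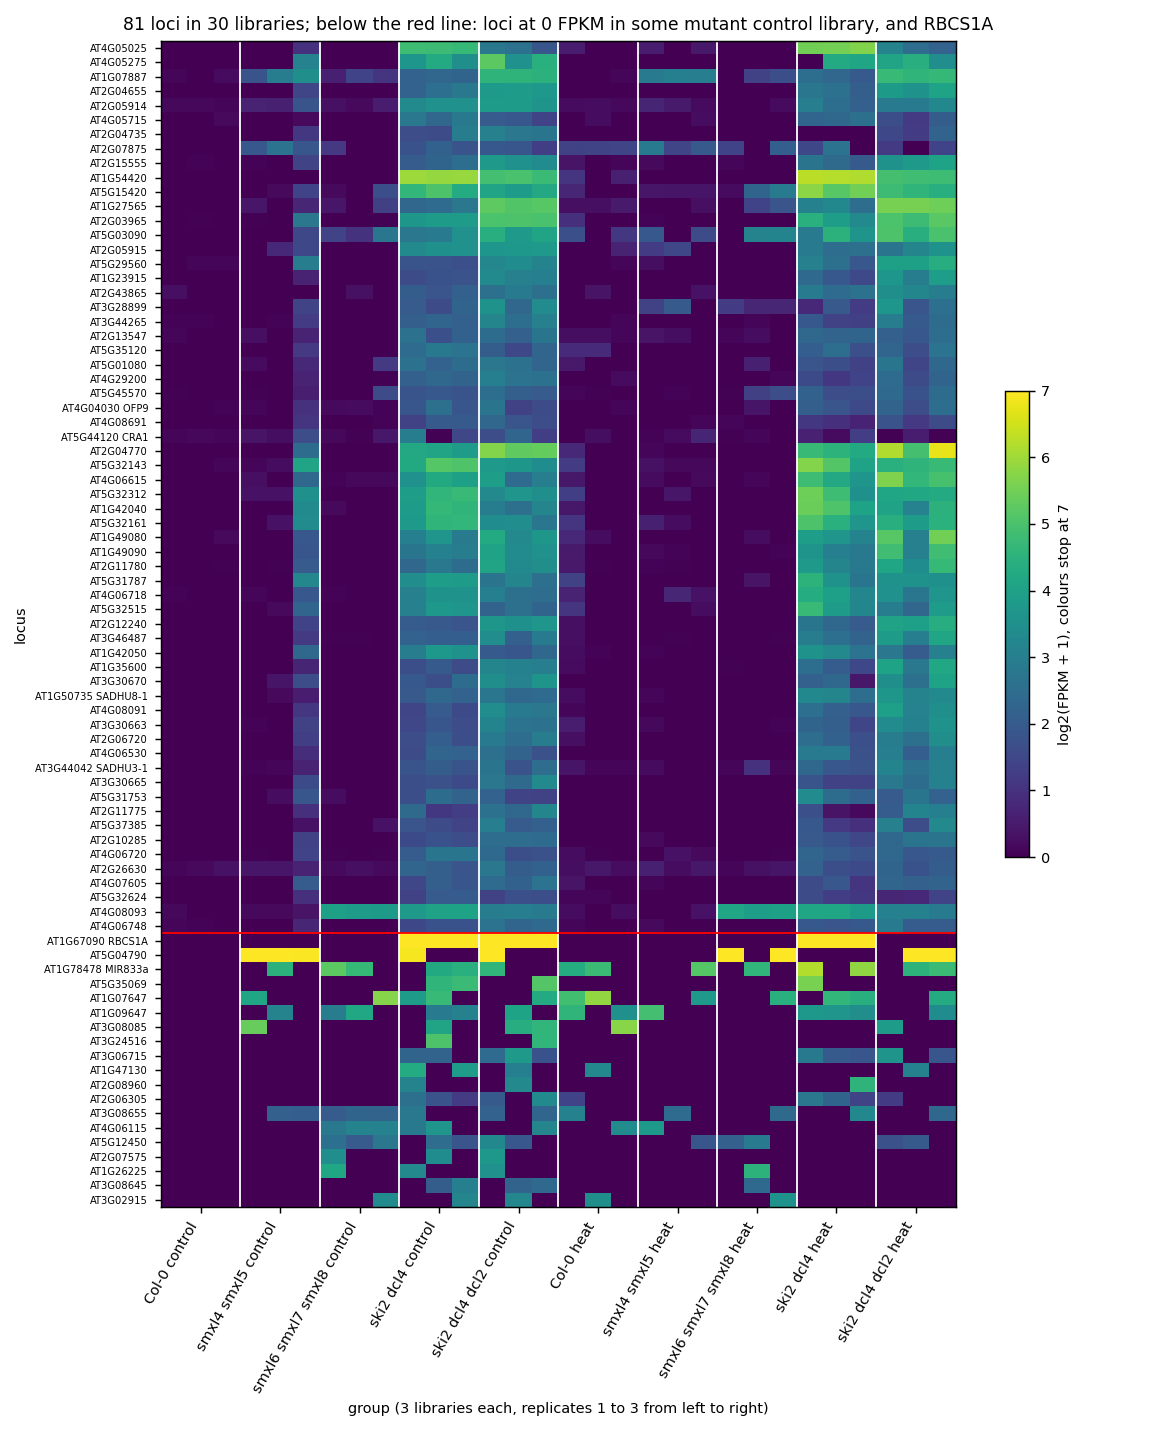
Level of each of the 81 loci (rows) in the 30 libraries (columns, grouped by genotype and treatment, 3 libraries each), as log2(FPKM + 1) with colours ending at 7. Above the red line, the 62 steady loci are dark in control Col-0 and bright in the 12 libraries of the ski2 dcl4 genotypes, and replicate 3 of control smxl4 smxl5 stands out; below it, 18 short loci flicker between 0 and high values, and RBCS1A is the top row.

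The largest family shows how alike the loci are. A family here means loci joined by alignments of at least 90% identity over at least 200 bp. It held 8 pseudogenes, 2 on chromosome 4 and 6 on chromosome 5, which aligned at 91.9% to 99.8% identity over 364 to 989 bp. A stretch of 90 bases shared by all 8 is shown because it tells how little separates their reads. The sequences are RefSeq's, from TAIR10.1, each on the strand named, and capitals mark bases that differ from AT5G32143.
AT5G32143, chr5:11821389-11821478, minus strand: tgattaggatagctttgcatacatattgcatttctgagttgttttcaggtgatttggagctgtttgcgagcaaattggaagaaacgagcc
AT5G32312, chr5:11944851-11944940, plus strand: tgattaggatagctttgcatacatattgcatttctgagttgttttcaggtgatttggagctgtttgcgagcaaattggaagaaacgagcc
AT5G32515, chr5:12140879-12140968, minus strand: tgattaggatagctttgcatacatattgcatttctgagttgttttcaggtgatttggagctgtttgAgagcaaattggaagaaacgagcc
AT5G31787, chr5:11713532-11713621, minus strand: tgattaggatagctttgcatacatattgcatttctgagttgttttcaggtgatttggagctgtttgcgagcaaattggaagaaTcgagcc
AT4G06718, chr4:4017724-4017813, minus strand: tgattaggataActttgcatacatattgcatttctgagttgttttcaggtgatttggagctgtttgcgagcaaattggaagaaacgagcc
AT4G06615, chr4:3284196-3284285, plus strand: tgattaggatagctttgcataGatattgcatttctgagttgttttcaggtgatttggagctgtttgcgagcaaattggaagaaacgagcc
AT5G32161 and AT5G31753 carry the same 90 bases as AT5G32143. The other 4 differ from it at 1 base each.

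A second family held 4 pseudogenes on chromosomes 1, 2 and 3. They were joined by 4 pairs that aligned at 97.4% to 99.0% identity, and not every pair of the family aligned. Its windows are shown because 1 member, AT3G46487, lies 182 kb from SKI2. It is the only one of the 81 loci within 1 Mb of SKI2, DCL4 or DCL2. Distances to the SMXL genes were not worked out. Capitals mark bases that differ from AT3G46487.
AT3G46487, chr3:17113644-17113733, plus strand: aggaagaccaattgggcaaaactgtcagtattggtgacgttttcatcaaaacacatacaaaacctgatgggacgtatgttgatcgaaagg
AT1G49090, chr1:18162013-18162102, plus strand: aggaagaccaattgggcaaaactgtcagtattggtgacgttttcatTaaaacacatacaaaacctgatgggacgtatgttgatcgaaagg
AT2G04770, chr2:1671402-1671491, plus strand: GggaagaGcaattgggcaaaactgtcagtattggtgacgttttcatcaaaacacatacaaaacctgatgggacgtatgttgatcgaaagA
AT1G49090 differs at 1 base and AT2G04770 at 3. No window is shown for AT1G49080, the remaining locus of the family.

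A pair of single-copy loci is shown for contrast, since they behaved unlike the families below. They are AT1G54420, annotated as coding for an uncharacterized protein, and AT4G05025, a long non-coding RNA. The first 110 bases of each locus are given.
AT1G54420, chr1:20311619-20311728, plus strand: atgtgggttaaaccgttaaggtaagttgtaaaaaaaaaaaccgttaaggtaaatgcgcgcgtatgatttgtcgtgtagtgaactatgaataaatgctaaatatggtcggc
AT4G05025, chr4:2582937-2583046, minus strand: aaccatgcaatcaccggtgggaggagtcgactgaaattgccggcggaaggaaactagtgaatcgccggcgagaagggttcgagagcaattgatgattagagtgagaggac

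By gene type, the 81 loci comprised 34 pseudogenes (42.0%), 26 protein-coding loci (32.1%) and 21 lncRNA, ncRNA, antisense or miRNA loci (25.9%). Over the 37780 nuclear loci of the table with a RefSeq position, the shares were 12.8%, 72.6% and 10.8%. All 34 pseudogenes were steady, and they made up 54.8% of the 62 steady loci. Most had no name beyond their identifier. Among the named steady loci were the Sadhu retrotransposons SADHU8-1 (AT1G50735) and SADHU3-1 (AT3G44042), and OFP9 (AT4G04030), a transcription repressor. They also included 3 loci annotated as beta-galactosidase-like or related (AT3G44265, AT4G29200 and AT5G01080), a caleosin-related gene (AT5G29560), a MADS-box family gene (AT5G35120) and an Ulp1 protease family gene (AT5G45570).

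Along the chromosomes, the loci lay where pseudogenes are dense. On each chromosome the 5 Mb window with most pseudogenes was taken, and these windows together held 16.5% of all nuclear loci of the table. They held 43 of the 81 loci (53.1%) and 39 of the 62 steady loci (62.9%). By gene type, the windows held 28 of the 34 member pseudogenes (82.4%), against 72.4% of all pseudogenes of the table. The steady loci that are not pseudogenes lay there in 11 of 28 cases (39.3%), against 8.26% of all loci that are not pseudogenes. These shares describe the selected loci, and near-identical copies among them are not independent.

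The 81 loci were spread over chromosomes 1 to 5 as 16, 19, 13, 15 and 18. Those no more than 200 kb apart formed 14 runs. The longest, chr5:11696730-12294049, spanned 597 kb and held 7 of the loci among 120 loci of the table, 6 of them from the family of 8. A second run, chr3:12210366-12227956, held 3 loci in 17.6 kb among 4 loci of the table. Within 1 Mb of DCL4 and of DCL2 there was none of the 81.

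**Figure D2:**
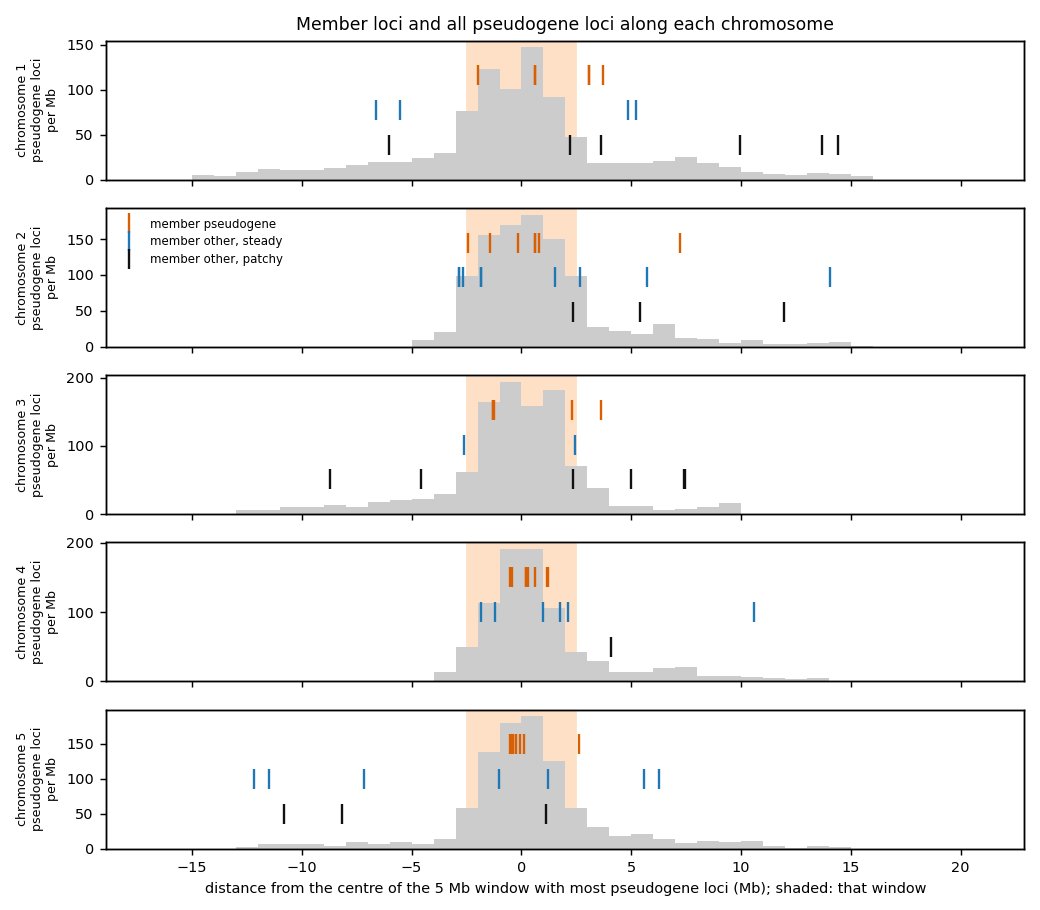
Distance of each locus from the centre of the 5 Mb window with most pseudogenes on its chromosome (x axis, Mb, 1 panel per chromosome), with grey bars counting all pseudogene loci per Mb. Ticks are member pseudogenes (orange), other steady loci (blue) and the remaining loci (black); 28 of 34 orange ticks fall in the shaded windows.

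Reads may be shared between copies. In all, 9 families held 27 of the 62 steady loci. Of the 9, 2 are pairs that overlap on opposite strands rather than copies, and the other 7 held 23 loci. At least 1 locus outside the 81 aligned at 95% identity or more over at least 200 bp with 39 of the 81 loci, 32 of them steady. These were 68 distinct loci. They include loci that overlap one of the 81 in place and are not copies, such as AT2G23090, which overlaps AT2G07875 over 272 bp. The 39 and 68 are thus upper limits for loci with copies and for copies. How the authors placed reads that match several loci is not given in the sources used here, so values within a family are uncertain as values of single loci. The overlapping pairs may share reads: AT2G03965 overlaps the lncRNA AT2G04655 over 669 bp, and AT2G05915 overlaps the antisense lncRNA AT2G05914 over 450 bp. Whether the counting used strand is not given in the sources used here.

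The presence of these loci was then examined in heated libraries, which the rule had not used. Most of the steady loci were again high in ski2 dcl4 and near 0 in Col-0. Some of the 18 short loci were not. AT1G07647 was at a mean of 28.4 FPKM in heated Col-0 against 14.6 in heated ski2 dcl4, and AT3G08085 at 17.7 against 0. Of 80 loci that passed the filter (1 FPKM or more in 3 or more libraries), 61 were higher in heated ski2 dcl4 than in heated Col-0 and none was lower (limma on log2(FPKM + 1), Benjamini-Hochberg adjusted p under 0.05). Over all 21531 genes tested, 22.3% were called higher and 17.2% lower. Loci could pass the filter through the control libraries that chose them, and a locus near 0 in heated Col-0 could hardly be called lower. The shares over all genes are therefore not a like background for these counts, nor for those of ski2 dcl4 dcl2 below. At an unadjusted p under 0.05 the counts were 62 and 0. The calls included 58 of the 62 steady loci and RBCS1A. Without RBCS1A they numbered 60 of 79. The median log2 difference of the 80 was 1.96, against 0.03 over all genes tested. The summed root markers overlapped between heated Col-0 (479.7 to 707 FPKM) and both heated mutants, while the shoot markers were higher in heated Col-0, at 24262 to 27612 FPKM against 17514 to 18683 in ski2 dcl4. Their part in the calls was not tested.

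Heated ski2 dcl4 dcl2 gave a like count against heated Col-0, with 60 loci higher and none lower, all 60 of them steady, where 2.94% of all genes were called higher and 2.98% lower. At an unadjusted p under 0.05 these were again 62 and 0. Both comparisons use the same heated Col-0 libraries. The median log2 difference of the 80 was 2.69, against −0.01 over all genes. Steady loci called in neither were AT2G07875, a lncRNA inside the strongly expressed gene AT2G23090, and CRA1 (AT5G44120), the cruciferin seed storage protein. AT2G04735 and AT2G11775 were not called in ski2 dcl4 alone, AT2G04735 being listed at 0 in its 3 heated libraries.

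AT1G54420 had the smallest adjusted p of the steady loci. It was at 0, 0 and 0 FPKM in control Col-0 and at 62.02, 58.0 and 59.6 in control ski2 dcl4. After heat it was at 1.08, 0 and 0.53 FPKM in Col-0, 77.0, 74.1 and 70.6 in ski2 dcl4, against 29.4, 27.9 and 27.1 with dcl2 added. The heated groups did not overlap, and ski2 dcl4 stood above ski2 dcl4 dcl2 in every library. The log2 difference from heated Col-0 was 5.67 ± 0.14 (SE) in ski2 dcl4 (limma, adjusted p = 8.60e-19) and 4.31 ± 0.14 in ski2 dcl4 dcl2 (adjusted p = 8.12e-16).

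The family of 8 was led by AT5G32143. It was at 18.0, 34.6 and 32.8 FPKM in control ski2 dcl4 and at 12.8, 11.98 and 9.61 in control ski2 dcl4 dcl2. In heated libraries it was at 51.1, 33.8 and 15.4 FPKM in ski2 dcl4, 20.9, 22.4 and 25.05 with dcl2 added, and 1.33, 0 and 0 in Col-0. Each mutant library stood above each Col-0 library, and the heated ski2 dcl4 libraries differed among themselves more than those of ski2 dcl4 dcl2. Against heated Col-0 its log2 difference was 4.55 ± 0.62 (SE) in ski2 dcl4 (limma, adjusted p = 3.95e-06). A relative on chromosome 4, AT4G06615, was at 27.5, 17.6 and 11.6 FPKM in heated ski2 dcl4 and at 48.9, 23.7 and 30.03 in heated ski2 dcl4 dcl2.

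The second family was led by AT2G04770. It was at 17.5, 16.0 and 13.6 FPKM in control ski2 dcl4, and at 50.9, 38.2 and 39.4 in control ski2 dcl4 dcl2. After heat it was at 25.4, 22.2 and 18.5 FPKM in ski2 dcl4, 71.3, 29.4 and 107.5 with dcl2 added, and 0.74, 0 and 0 in Col-0. All 3 heated groups were apart from each other. AT3G46487, the member near SKI2, was at a mean of 3.38 ± 0.18 FPKM in control ski2 dcl4 and 6.53 ± 3.21 in control ski2 dcl4 dcl2 (SD, n = 3).

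The Sadhu elements were lower. SADHU8-1 was at 2.88, 4.07 and 3.64 FPKM in control ski2 dcl4, and at 8.71, 8.18 and 4.82 after heat. SADHU3-1 was at 2.55, 3.16 and 2.51 FPKM in control ski2 dcl4 and at 4.03, 2.76 and 2.46 after heat. Both elements were at 0 in control Col-0, and SADHU8-1 was higher in heated than in control ski2 dcl4 without overlap, while the SADHU3-1 groups overlapped. SADHU8-1 differed from heated Col-0 by 2.92 ± 0.17 (SE) on the log2 scale in heated ski2 dcl4 (limma, adjusted p = 8.66e-12).

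CRA1 differed from the other loci. It was at 6.66, 0.03 and 1.79 FPKM in control ski2 dcl4, so that replicate 1 alone carried its mean past the rule. The summed level of 6 seed markers, CRA1 among them, ranged from 0.169 to 11.3 FPKM in these libraries, from 0.129 to 0.329 FPKM in control Col-0 and from 6.07 to 31.2 FPKM in control libraries labelled smxl4 smxl5. The part of residual seed tissue in the CRA1 value was not tested. CRA1 was not called in either heated mutant.

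**Figure D3:**
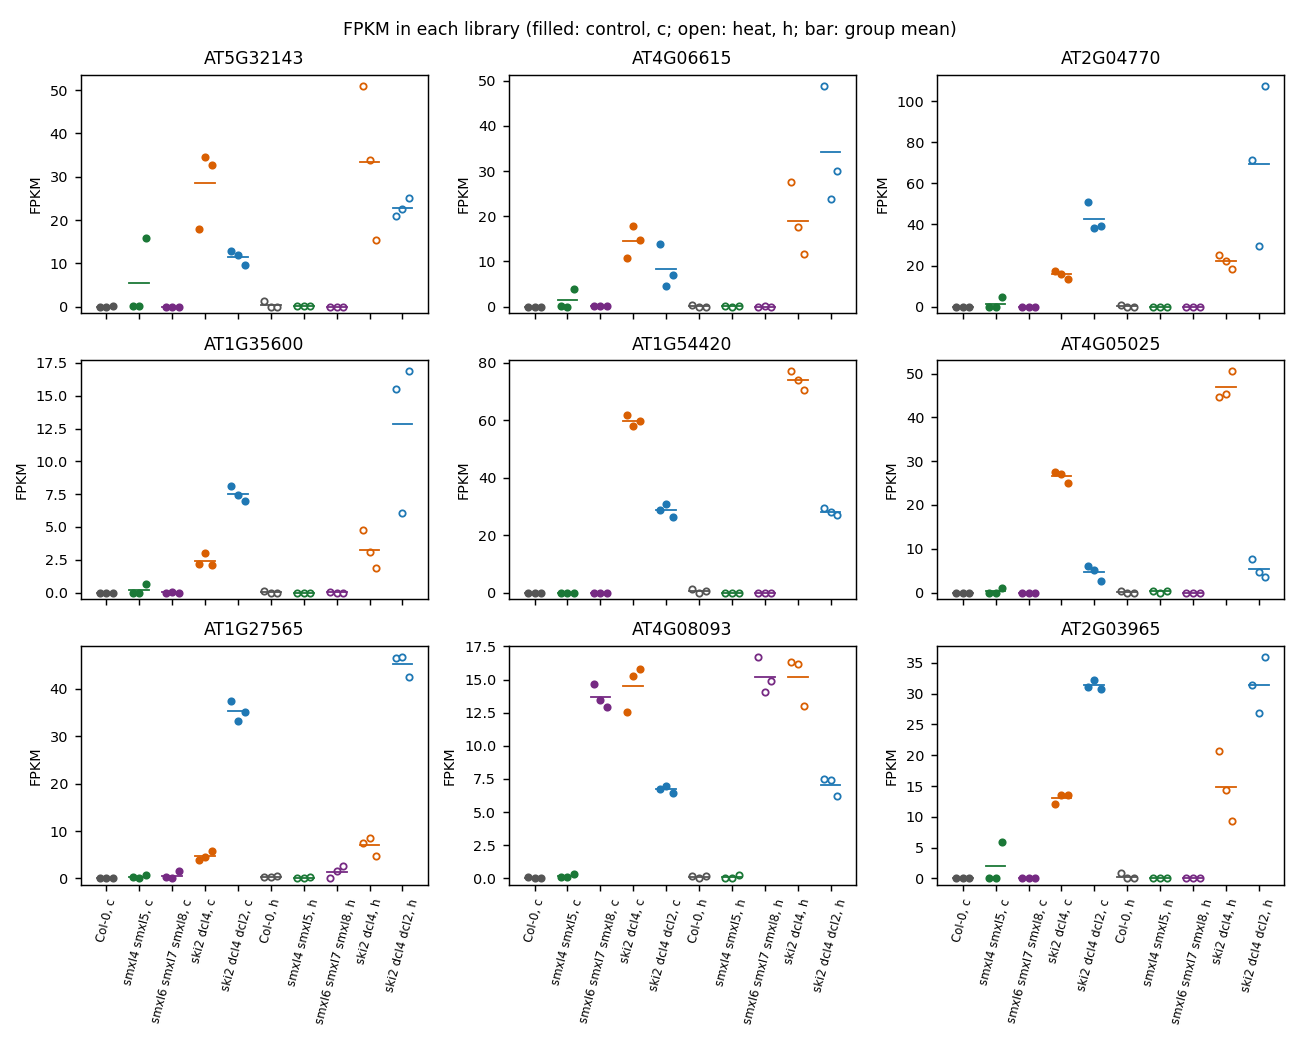
FPKM (linear y axes from 0) of 9 loci in each of the 30 libraries, grouped by genotype and treatment on the x axis; filled points are control, open points heated, and bars are means of 3 libraries. AT1G54420 and AT4G05025 are higher in ski2 dcl4 than in ski2 dcl4 dcl2, AT2G04770, AT1G35600 and AT1G27565 are higher in ski2 dcl4 dcl2, and AT4G08093 is also high in smxl6 smxl7 smxl8.

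With dcl2 added, some of the loci were higher and some lower after heat, while 48 of the 80 tested were called in neither direction. In heated libraries, 26 of the 80 loci were higher in ski2 dcl4 dcl2 than in ski2 dcl4, and 6 were lower (limma, adjusted p under 0.05). Over all genes 15.6% were called higher and 21.2% lower, and 33 and 6 of the 80 were past an unadjusted p of 0.05. With a pseudocount of 0.1 in place of 1 the counts were 10 higher and 5 lower, and the shares over all genes at that setting were not worked out. All 26 higher loci were steady. The lower ones were AT4G05025, AT1G54420, AT4G08093, AT4G05715, the short lncRNA AT2G06305 and RBCS1A, which was listed at 0 in 1 of the groups and without which 5 were lower. The median log2 difference of the 80 was 0.44, against −0.04 over all genes.

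The locus with the largest fall among the steady loci was AT4G05025. In heated libraries it was at 44.7, 45.3 and 50.5 FPKM in ski2 dcl4 and at 7.68, 4.61 and 3.64 in ski2 dcl4 dcl2. Control libraries showed the same order, with 27.4, 27.1 and 25.04 FPKM against 5.99, 5.20 and 2.69. The groups were far apart at both temperatures. The heated difference was −2.97 ± 0.24 on the log2 scale (SE, limma, adjusted p = 3.66e-09), and for AT1G54420 it was −1.36 ± 0.14 (adjusted p = 9.92e-08).

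The largest rise among the steady loci was at AT1G27565 (chr1:9574550-9575189, plus strand), annotated as coding for an uncharacterized protein. It was at 7.46, 8.63 and 4.80 FPKM in heated ski2 dcl4 and at 46.6, 46.7 and 42.6 in heated ski2 dcl4 dcl2. At control it was at 3.99, 4.46 and 5.79 FPKM against 37.4, 33.3 and 35.1. No library of the first genotype came near the second. The heated difference was 2.57 ± 0.33 (SE, limma, adjusted p = 2.21e-06). AT1G07887 (chr1:19963067-19964105, plus strand), a lncRNA whose 1039 bp all lie within MRD1 on the other strand and which overlaps HEI10 over 839 bp, had a heated difference of 2.39 ± 0.33 (adjusted p = 5.83e-06), while HEI10 itself was at a mean of 1.85 FPKM in ski2 dcl4 and 4.04 with dcl2 added. MRD1 was listed at 0 in every group but heated ski2 dcl4 dcl2, where its mean was 0.04 FPKM. Reads of AT1G07887, MRD1 and HEI10 cannot be told apart here, so the values listed for AT1G07887 may include reads of either.

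Within the larger families the difference had mostly 1 sign. Without a test at control, the 8 loci of the largest family all had lower log2 means in ski2 dcl4 dcl2 than in ski2 dcl4 (median −0.92). After heat 7 of the 8 did (median −0.38), AT4G06615 being the exception at 0.84, and none of the 8 was called. The 4 loci of the second family had higher log2 means in ski2 dcl4 dcl2 at control (median 0.71) and after heat (median 1.09). After heat 3 of the 4 were called, and AT1G49080, whose libraries overlapped, was not (1.03 ± 0.47, SE, limma, adjusted p = 0.0919). In a family of 3, AT1G35600, AT3G30663 and AT3G30670, all had higher log2 means at control (median 1.32), and all 3 were called after heat (median 1.65). AT1G35600 was called after heat at 1.65 ± 0.25 (SE, limma, adjusted p = 2.58e-05).

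Over the 62 steady loci, the sign of the difference between the genotypes was the same at control and after heat in 56, higher in ski2 dcl4 dcl2 in 40 and lower in 16. These 2 differences share no library, but the control libraries chose the loci, and copies may share reads. The share of all genes with the same sign was not computed, so nothing is read from the 56. At control, the 3 libraries of the genotypes did not overlap at 30 higher and 14 lower loci. Over all genes kept, 24.7% and 19.3% did so. Since control libraries chose the loci, nothing is read from that count.

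**Figure D4:**
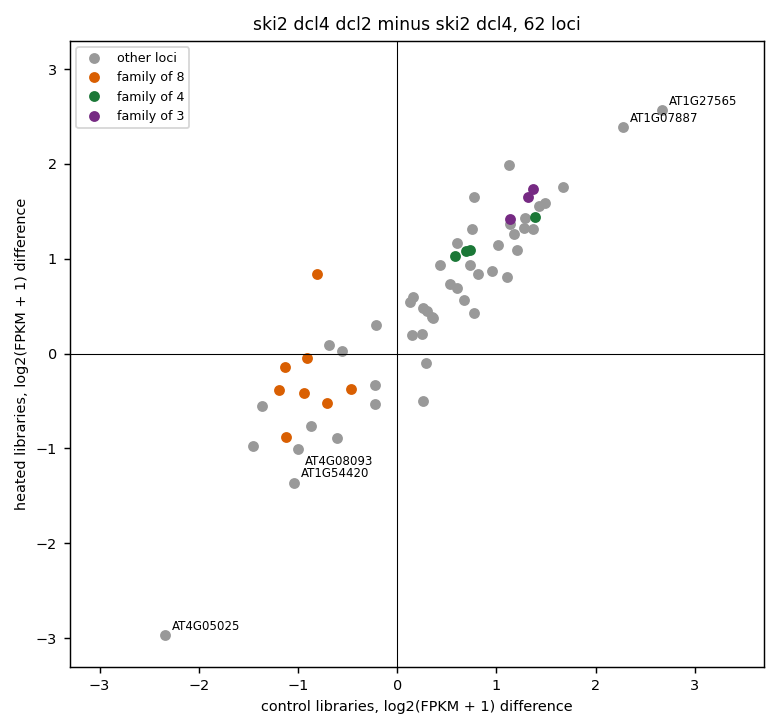
Difference in log2(FPKM + 1) between ski2 dcl4 dcl2 and ski2 dcl4 for the 62 steady loci, in control libraries (x axis) and heated libraries (y axis), each point a difference of means of 3 libraries. Of the 62, 40 lie in the upper right and 16 in the lower left; the family of 8 (orange) lies left of 0 and the families of 4 and 3 (green and purple) lie right of it.

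After heat, some of the loci were higher and others lower. In ski2 dcl4, 36 of the 62 steady loci had a higher log2 mean after heat and 26 a lower one, with a median difference of 0.10 against 0.06 over all genes kept. The 3 heated libraries lay above the 3 control libraries at 10 loci and below them at 7, against 33.9% and 25.1% of all genes kept. In ski2 dcl4 dcl2, 40 were higher and 22 lower (median 0.24 against 0.00), with 12 loci above and 5 below without overlap, against 32.4% and 30.6%. The control libraries chose the loci, so these differences are descriptions. Tissue markers moved with heat as well. In ski2 dcl4 the summed level of the 5 root markers was 1597 to 1979 FPKM at control and 515 to 680.3 after heat, and that of the 5 shoot markers 12780.1 to 12992 and 17514 to 18683. In ski2 dcl4 dcl2 the root sums were 1686 to 1830.3 and 529 to 604 FPKM, and the shoot sums 15662 to 16174 and 22015 to 23231. Their part in the differences of the loci was not tested.

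In both genotypes SADHU8-1, AT2G43865, AT5G15420 and the caleosin-related AT5G29560 were higher after heat without overlap. AT5G29560 went from 2.52, 2.48 and 2.28 FPKM to 7.23, 5.03 and 2.75 in ski2 dcl4, and from 8.43, 9.60 and 7.82 to 14.9, 14.7 and 19.5 in ski2 dcl4 dcl2. AT4G29200 and the overlapping pair AT2G05914 and AT2G05915 were lower without overlap in both. AT2G04735 went from 7.29, 5.86 and 5.59 FPKM to 1.85, 1.35 and 3.65 in ski2 dcl4 dcl2. In ski2 dcl4 it was listed at 0 in all 3 heated libraries, which may be failed estimates, and it is among the 7 loci counted below there. AT2G05914 went from 9.20, 10.7 and 10.7 FPKM to 6.91, 4.78 and 3.46 in ski2 dcl4. In the family of 8, all 8 were higher after heat in ski2 dcl4 dcl2 (median log2 difference 0.72), and 7 of 8 in ski2 dcl4 (median 0.25).

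Heated libraries of a genotype differed from each other across the loci as a set. In heated ski2 dcl4, replicate 1 was the highest at 49 of the 62 steady loci and replicate 3 the lowest at 47, with summed levels of 727, 595 and 445 FPKM. In heated ski2 dcl4 dcl2, replicate 2 was the lowest at 45, and the sums were 808, 559 and 873 FPKM. The ratio of the highest to the lowest library in heated ski2 dcl4 had a median of 1.84 over the 59 steady loci above 0 in all 3 libraries, and of 2.94 over the family of 8. In heated ski2 dcl4 dcl2 the order was the other way, with medians of 1.98 over 61 such loci and 1.69 over the family. AT2G04735, AT2G07875 and AT4G05275 have no ratio in heated ski2 dcl4, since a library was listed at 0.

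The other genotypes were then read library by library. At 0.5 FPKM or more, the 3 control libraries of Col-0 held none of the 62 steady loci. The control libraries labelled smxl4 smxl5 held 3, 4 and 55, and those of smxl6 smxl7 smxl8 held 4, 3 and 7. After heat the counts were 14, 2 and 4 in Col-0, 8, 5 and 4 in those labelled smxl4 smxl5, and 3, 9 and 8 in smxl6 smxl7 smxl8. Heated libraries of the ski2 dcl4 genotypes held 58 to 61.

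In replicate 3 of the control group labelled smxl4 smxl5, 59 of the 62 loci lay above both other replicates. The median level was 36.2% of the ski2 dcl4 control mean, with quartiles of 22.2% and 56.9%. The family of 8 stood at 27.9% to 75.8% of that mean and at 47.8% to 139% of the ski2 dcl4 dcl2 mean, and AT5G32143 was at 15.9 FPKM there, against 0.09 and 0.18 in replicates 1 and 2. AT5G29560 was at 6.75 FPKM, or 278% of the ski2 dcl4 mean and 78.3% of the ski2 dcl4 dcl2 mean. Across the 62 loci, Pearson's r between this library and the control mean was 0.32 for ski2 dcl4 and 0.27 for ski2 dcl4 dcl2 on log2(FPKM + 0.1), as a description across loci that share copies.

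The share of the mutant level differed between loci and with the mutant taken as reference. In that library 53 of the 62 loci were at 15% or more of the ski2 dcl4 control mean, 4 between 5% and 15%, and 5 under 5%. Against the ski2 dcl4 dcl2 control mean these counts were 42, 16 and 4, with a median of 21.1%. AT1G54420, at 59.9 FPKM in ski2 dcl4, and AT2G43865, at 3.05 FPKM, were at 0. AT4G05025 was at 1.00 FPKM against 26.5, AT4G08093 at 0.30 against 14.5, and AT4G05715 at 0.13 against 5.34. As shares of the ski2 dcl4 dcl2 mean, AT4G05025 was at 21.6%, AT4G05715 at 5.43% and AT4G08093 at 4.50%. Between libraries of a group, the ratio of the highest to the lowest library of these 5 loci was 1.07 to 1.53 in control ski2 dcl4 (median over the 62 loci 1.53) and 1.08 to 2.23 in control ski2 dcl4 dcl2 (median over the 62 loci 1.55). The cause of the levels in this library was not tested.

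**Figure D5:**
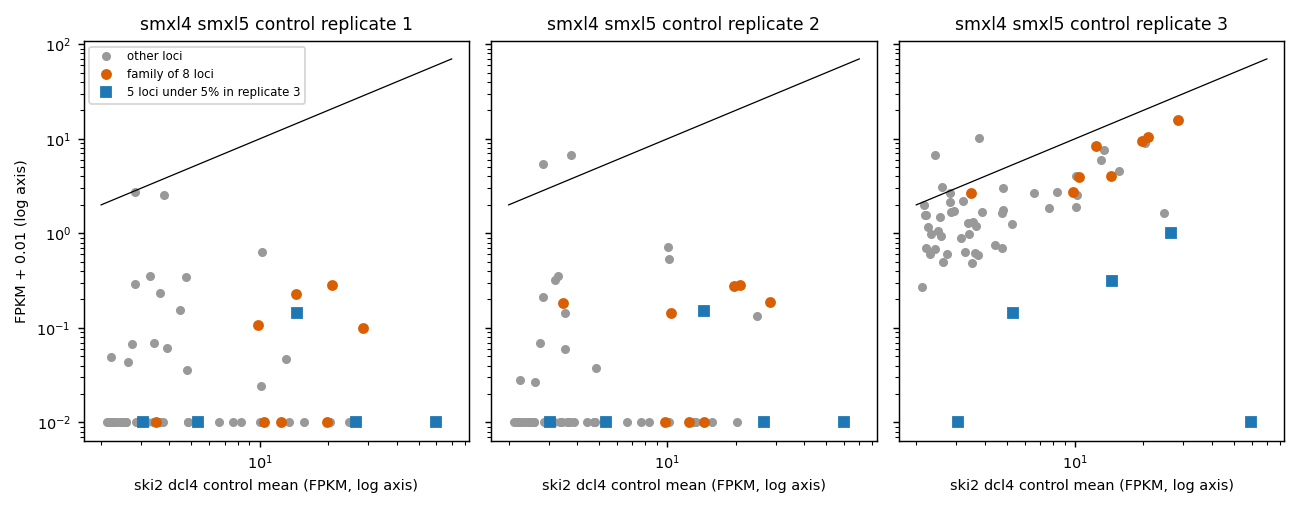
FPKM + 0.01 of the 62 steady loci in each of the 3 control libraries labelled smxl4 smxl5 (y axis, log) against their control mean in ski2 dcl4 (x axis, FPKM, log), with the line of equal level. Only in replicate 3 does the cloud approach the line; the family of 8 (orange) stands at 27.9% to 75.8%, and 5 loci (blue) at under 5%.

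In heated Col-0, replicate 1 lay above both other replicates at 35 of the 62 loci, and its median level was 2.60% of the heated ski2 dcl4 mean. It held AT5G32143 at 1.33 FPKM, AT1G54420 at 1.08 and AT2G03965 at 0.92. Without this library, 60 loci were called in each of heated ski2 dcl4 and ski2 dcl4 dcl2 against Col-0.

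Tested against heated Col-0, few of the loci were called in the other genotypes. Most were near 0 in both heated groups compared and could hardly be called. Loci could pass the filter through libraries of the ski2 dcl4 genotypes. The shares over all genes are therefore not a like background for these counts. The same holds for the counts of smxl6 smxl7 smxl8 and of the 2 control groups below. In heated libraries labelled smxl4 smxl5, AT1G07887 was higher and AT1G54420 lower (limma, 19.1% and 17.2% of all genes called), and 3 and 1 were past an unadjusted p of 0.05. AT1G07887 was at 6.53, 7.12 and 6.96 FPKM there against 0, 0 and 0.08 in heated Col-0, a difference of 2.94 ± 0.33 on the log2 scale (SE, adjusted p = 5.29e-07). The groups did not overlap, and the control libraries under that label stood at 2.52, 6.70 and 10.1 FPKM. The call at AT1G54420 rests on 1.08, 0 and 0.53 FPKM in heated Col-0 against a listed 0, a level of few reads. The count of 2 became 4 without Col-0 replicate 3 or without replicate 3 of the other group.

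In heated smxl6 smxl7 smxl8, 4 loci were higher and 1 lower than in Col-0 (11.7% and 12.1% of all genes), with 7 and 1 at an unadjusted p under 0.05. The higher ones were AT4G08093, AT5G15420, AT1G07887 and AT5G45570, and the lower one was AT1G54420. The count of 5 fell to 2 without Col-0 replicate 1 or 3, and to 3 without Col-0 replicate 2 or without replicate 2 or 3 of smxl6 smxl7 smxl8. AT5G15420 was at 0.15, 3.79 and 6.52 FPKM in heated smxl6 smxl7 smxl8, AT5G45570 at 0.02, 1.53 and 2.13, and AT1G07887 at 0, 1.59 and 2.23. Replicate 1 lay near Col-0 at these 3 loci, so that 3 of the 4 higher calls rest on replicates 2 and 3.

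AT5G03090 (annotated as an Mto 1 responding down protein) and AT3G28899 (an uncharacterized protein) also reached 1 FPKM outside the ski2 dcl4 lines. AT5G03090 was at 0, 7.74 and 7.87 FPKM in heated smxl6 smxl7 smxl8 and at 2.28, 0 and 1.20 in heated Col-0, and the difference did not pass the test (1.14 ± 0.68, adjusted p = 0.234, limma). In control smxl6 smxl7 smxl8 it was at 1.72, 1.02 and 5.78 FPKM. AT3G28899 was at 1.62, 2.94 and 0 FPKM in the heated libraries labelled smxl4 smxl5 and at 0 in each heated Col-0 library, and this difference did not pass either (1.12 ± 0.46, adjusted p = 0.0610, limma).

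AT4G08093 (chr4:4990153-4991601, plus strand), annotated as a transcribed pseudogene, was present in smxl6 smxl7 smxl8 at the level of ski2 dcl4. It was at 14.7, 13.5 and 13.0 FPKM in control smxl6 smxl7 smxl8, 12.6, 15.2 and 15.8 in control ski2 dcl4, and 6.75, 6.99 and 6.45 in control ski2 dcl4 dcl2. In control Col-0 it was at 0.10, 0 and 0 FPKM, and under the label smxl4 smxl5 at 0.13, 0.14 and 0.30. The first 2 groups overlapped, ski2 dcl4 dcl2 stood below them, and the last 2 were near 0. In heated smxl6 smxl7 smxl8 it was at 16.7, 14.1 and 14.9 FPKM, a difference from heated Col-0 of 3.86 ± 0.11 (SE, limma, adjusted p = 1.07e-17).

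Between the control groups labelled smxl4 smxl5 and smxl6 smxl7 smxl8, neither used by the rule, 4 loci were higher in the first and 3 lower (limma, 8.41% and 9.8% of all genes), with 12 and 3 at an unadjusted p under 0.05. AT4G08093 was lower at −3.63 ± 0.11 (SE, adjusted p = 1.32e-16), and AT1G07887 higher at 1.72 ± 0.33 (adjusted p = 0.000654). AT2G05914 and AT2G07875 were also higher, and the short loci AT5G04790, AT4G06115 and AT5G12450 made up the rest. The count of 7 became 13 without replicate 1 of the first group. It became 4 without its replicate 3, and 4 without any 1 of the smxl6 smxl7 smxl8 libraries.

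Of the 68 loci outside the 81 that aligned with them, overlapping loci included, 56 (82.4%) were at or under 0.2 FPKM in control Col-0. Over the 37780 nuclear loci with a position the share was 40.5%. The limit is that of the rule, and copies may share reads with the loci it chose, so nothing is read from this difference.

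Other genes of the silencing and decay pathways were read from a list of 17. In heated ski2 dcl4 against Col-0, 5 were higher, RDR1, RDR2, SGS3, AGO7 and HEN1, which encode RNA-dependent RNA polymerases and a cofactor, an Argonaute and the small RNA methyltransferase. A further 4 were lower, SKI2, DCL4, RDR6 and AGO4, with a median over the list of 0.04 against 0.03 over all genes. These counts of 17 stand beside 22.3% of all genes called higher and 17.2% lower. SKI2 was at −1.06 ± 0.06 on the log2 scale (SE, limma, adjusted p = 1.61e-11). In heated ski2 dcl4 dcl2, RDR6 was higher and SKI2 and DCL2 were lower (list median 0.04, against −0.01 over all genes, of which 2.94% were called higher and 2.98% lower).

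Of 13 genes for chromatin silencing of transposable elements, MOM was higher in heated ski2 dcl4 and 4 were lower. The lower genes were the chromatin remodeller gene DDM1 (listed as CHR1), the methyltransferase gene MET1, NRPD1A for RNA polymerase IV and the demethylase gene ROS1 (listed as DML1). The median over the list was −0.0042, against 0.03 over all genes, and the counts of 13 stand beside the same 22.3% and 17.2%. In heated ski2 dcl4 dcl2, CMT2 was higher, and NRPD1A and DML1 were lower (list median 0.14). DDM1 and MET1 were higher in heated ski2 dcl4 dcl2 than in heated ski2 dcl4, as were CMT3 and CMT2, and MOM was lower, beside 15.6% and 21.2% of all genes.

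At the edges of the rule, the locus just inside the ski2 dcl4 threshold of 2 FPKM was AT3G08655 at 2.00, and just outside it was AT4G03865 at 1.95. For ski2 dcl4 dcl2 they were AT5G32624 at 2.02 and AT5G35057 at 1.86 FPKM. For the Col-0 limit of 0.2 FPKM they were AT2G26630 at 0.157 and AT3G01345 at 0.217.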

How the data were processed

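The deposited table holds 38088 genes and 30 libraries. Its values were read as FPKM, as made by the authors, from the values themselves, since no source used here gives the unit. The submitters' processing notes name Bowtie with no version; counter, build and annotation were not found in the sources used here. Positions, gene types and sequences are those of RefSeq for TAIR10.1, to which 37792 identifiers matched, all 81 loci among them, and that build may not be the authors'.

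Values were taken as log2(FPKM + 1), a scale that understates the change of low genes. Genes at 1 FPKM or more in 3 or more libraries were kept (21531), and limma 3.58.1 in R 4.3.3 was fitted to all 30 libraries with 1 mean per group, an intensity trend and Benjamini-Hochberg adjustment over all genes kept. Loci with an adjusted p under 0.05 were called. AT3G24516 did not pass the filter. Changes of 2 sizes were simulated together, each in 100 of 21531 genes, for ski2 dcl4 heat against Col-0 heat. Of changes of 1 on the log2 scale 95% were recovered, and of changes of 2 99%. The whole simulation gave 4 false calls. Recovery was not worked out apart for genes as low in Col-0 as the chosen loci, so it is not applied to them. Counts of loci without overlap refer to 21407 nuclear genes kept. Families and copies were found with BLAST 2.17.0. Other pseudocounts, filters, scalings and fits were tried, and each library was left out in turn.

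The 81 loci, the gene lists and the tests were chosen with earlier results of these data known. Genes named were the mutated genes and the 12 loci with the highest mean over the 12 libraries of the ski2 dcl4 genotypes. Loci within 1 Mb of SKI2, DCL4 or DCL2 were named too. So were steady loci at 1 FPKM or more in another genotype (given as counts for the 42 in replicate 3 of control smxl4 smxl5). The 6 smallest p-values for the effect of dcl2 and loci at the thresholds completed the list. Others were chosen after their values were seen.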

Additional observations from a re-analysis of the deposited data

How the results depend on the processing

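Counts of called loci in ski2 dcl4 (61) and ski2 dcl4 dcl2 (60) against Col-0 after heat stayed within 1.5 times under every alternative run, with 59 to 60 and 59 to 61 when 1 library was left out. For ski2 dcl4 dcl2 against ski2 dcl4 after heat (32), leaving out 1 library gave 26 to 36, a pseudocount of 0.1 gave 15 (10 higher, 5 lower), and a fit without replicate 3 of control smxl4 smxl5, chosen after seeing the data, gave 41. For smxl4 smxl5 against Col-0 after heat (2), a pseudocount of 0.1 gave 4, a fit to the 2 groups alone 1, and leaving out 1 library 2 to 4. For smxl6 smxl7 smxl8 against Col-0 after heat (5), the fit to the 2 groups alone gave 2 and leaving out 1 library 2 to 7. For the control groups labelled smxl4 smxl5 and smxl6 smxl7 smxl8 (7), these gave 4, and 4 to 13. The cause was not tested. The rule found 156 loci at a minimum of 1 FPKM, 32 at 4 FPKM, 45 when every library had to pass, and 73 to 90 when 1 library was left out. Of 2232 results of single steady loci under alternatives in the first 3 comparisons, 61 lost and 25 gained their call, and none changed direction with a call.

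Same-numbered libraries of the groups compared showed no strong shared deviation, with correlations from −0.13 to 0.11, and the main fit did not pair them. Whether same-numbered samples were grown or processed together cannot be told from these correlations. With the replicate block the counts were 61, 60, 32, 2, 5 and 7, the same as without it. Depth limits low values: 1 read in 1 kb stood for about 0.0427 to 0.0743 FPKM, and short loci at a few reads cannot be told from 0.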
